A study of Tupaia belangeri with 8 samples.

Results

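The miR-92, miR-25, miR-363 and miR-32 seed family is a set of miRNAs that share their seed, bases 2 to 8 of the mature strand, the part that pairs with target mRNAs. Its 4 members with a row in the table, tch-miR-92a-3p, tch-miR-25-3p, tch-miR-363-3p and tch-miR-32-5p (written below without the species prefix tch), were taken by name out of 384 listed miRNAs, of which 159 have a known name and 225 are predicted. They were chosen by their shared seed and by having reads in this table, with results of these data already known, so their levels are given as a description. Small RNA was sequenced in 8 libraries of primary neurons from the brain of neonatal tree shrews (Tupaia belangeri), a small mammal close to primates. The 4 PBS libraries are controls, grown in 1 ml of complete neuronal medium after a PBS rinse. The 4 METH libraries received 5 µl of a methamphetamine stock labelled 100 mmol in 995 µl of that medium. All wells were collected after 24 h, and the medium of both groups held 15% fetal bovine serum. The series asks which miRNAs accompany the damage that methamphetamine, a psychostimulant that releases dopamine, does to neurons.

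A miRNA guides the silencing complex to mRNAs that match its seed, so members of a seed family can repress the same targets while being made from different genes. Known targets of these miRNAs in human and mouse cells include BCL2L11 (Bim, a protein that promotes cell death), and the miR-17-92 cluster that carries miR-92a promotes cell division, also in neural progenitors. In the RefSeq annotation of TupChi_1.0, a tree shrew assembly used here for gene names and gene order only, MIR92A-1 closes a run of MIR17, MIR19A, MIR20A and MIR19B-1, the miR-17-92 cluster. MIR92A-2 lies between MIR363 and MIR19B-2, in the related miR-106a-363 cluster. MIR25 follows MIR93 within the span of MCM7, a DNA replication helicase gene, and MIR32 lies within the span of TMEM245, a membrane protein gene. Mature miR-92a-3p can come from either of its genes, and reads cannot be assigned to one of them, which also holds for miR-19b-3p.

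Total counts over the listed miRNAs ran from 339243 to 7334789 per library, a 21.6-fold range, and the libraries numbered 4 were the deepest of each group. Set apart from the rest were PBS 1, PBS 3 and METH 3, which lay at −14.64, −13.03 and −18.64 on a first principal component with 65.7% of the variance, against 6.34 to 11.94 for the other 5. miR-21-5p, the most abundant miRNA on average, held 7.53%, 6.95% and 5.26% of the reads in these 3 libraries and between 33.5% and 49.3% in the others. The same 3 were also the shallowest, with totals of 526031, 388419 and 339243 reads, against 642982 or more in the others. The part of depth in their separation was not tested.

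Marker miRNAs of the labelled cell type and of others were summed in TPM, the authors' reads scaled to 1 common library total over the listed miRNAs. Of 6 neuron markers 5 were listed, and miR-124 was not analysed here. Their sums were 21437 to 94069 TPM in PBS and 20754 to 92612 TPM in METH, highest in PBS 1 and METH 3. The largest part in each library was miR-9-5p, and the markers were ordered differently. miR-129-5p was also highest of each group in PBS 1 and METH 3, and miR-128 in PBS 3 and METH 3. In PBS 1, PBS 3 and METH 3, miR-218-5p was lowest, at 688, 353 and 554 TPM against 1249 to 2307 TPM elsewhere. There miR-7-5p was at 2544, 5610 and 2258 TPM, against 1641 to 23598 TPM elsewhere. Of 6 fibroblast and smooth muscle markers 3 were listed. Their sums were 16689 to 60941 TPM in PBS and 13571 to 59378 TPM in METH, the lowest of each group in PBS 1 and METH 3. Of these, only miR-143-3p was lowest of each group in both, at 2787 and 1250 TPM. miR-199b-3p was lowest in PBS 2 and METH 3, at 8353 and 12313 TPM, and miR-10b-5p was highest of all in PBS 1, at 53.2 TPM (28 reads). Of 4 leukocyte markers 3 were listed, with sums of 7589, 7891 and 5754 TPM in PBS 1, PBS 3 and METH 3, against 558 to 4185 TPM in the other 5. Of these, miR-155-5p was at 3110.1, 4778 and 5344 TPM in the 3 libraries and at 390.0 to 883 TPM elsewhere. miR-146a-5p was at 4479, 3105 and 409.7 TPM in the 3, and at 3390.5 TPM in METH 1 and 100.1 to 167 TPM in the remaining 4. miR-142, which defines blood-lineage cells, was at 0 in PBS 1, PBS 2, METH 2 and METH 3, and had 3 reads in PBS 3 and 36 reads in METH 1. Of 5 epithelial markers 4 were listed, at 549 TPM in PBS 1, 513 TPM in METH 3 and at most 46.3 TPM in the others, and miR-141-3p was at 0 in 7 libraries. miR-486-3p, the 1 of 4 red cell markers listed, was at 28.5, 20.6 and 61.9 TPM in PBS 1, PBS 3 and METH 3 and at most 7.78 TPM in the others, and the liver and serum miRNA miR-122-5p between 1.49 and 132 TPM. miR-219-5p, the 1 of 2 oligodendrocyte markers listed, was at 0 in 6 libraries, and the endothelial and the 5 pluripotent cell markers were not analysed here. Within these bulk samples, fewer cells of a type and less RNA per cell cannot be told apart, and the part of these markers in the values below was not tested.

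miR-92a-3p, a repressor of vessel growth in mouse, was the most abundant member on average and varied most in abundance among the members with reads in every library. Its level was 26135, 2285, 44534 and 3593 TPM in PBS 1 to 4, from 13748, 1780, 17298 and 26352 reads. In METH 1 to 4 it was 2947, 4033, 48679 and 2605 TPM, from 1895, 2745, 16514 and 17459 reads. PBS 1, PBS 3 and METH 3 were high, the other 5 were low, and both groups held libraries of either kind. From the lowest to the highest library the level differed 21.3-fold, and the rank of miR-92a-3p among listed miRNAs moved from 32 in METH 4 to 7 in METH 3. Group means were 19137 ± 20163 TPM in PBS and 14566 ± 22750.1 TPM in METH (SD, n = 4).

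miR-25-3p, which in human cells represses Bim and the cell cycle inhibitor p57, varied less. PBS 1 to 4 were at 7003, 1821, 8568 and 1921 TPM, from 3684, 1418, 3328 and 14089 reads. METH 1 to 4 were at 2115, 2416, 9577 and 1723 TPM, from 1360, 1644, 3249 and 11546 reads. The same 3 libraries were high as for miR-92a-3p, the groups overlapped, and the range was 5.56-fold. Means were 4828 ± 3475 TPM in PBS and 3958 ± 3757 TPM in METH (SD, n = 4).

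miR-363-3p, whose cluster lies on the X chromosome in human and mouse, was ordered differently over the libraries. Its level was 5640.4, 2197, 4415 and 621 TPM in PBS 1 to 4, from 2967, 1711, 1715 and 4556 reads. In METH 1 to 4 it was 8050.0, 2157, 2965 and 670.2 TPM, from 5176, 1468, 1006 and 4492 reads. METH 1 was highest, above PBS 1, PBS 3 and METH 3, and the 2 deepest libraries, PBS 4 and METH 4, were lowest in their groups and in all 8. The range was 13.0-fold, with means of 3218 ± 2243 TPM in PBS and 3461 ± 3204 TPM in METH (SD, n = 4).

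miR-32-5p, another repressor of Bim in human cells, was the rarest member, and the libraries rich in miR-92a-3p held none of it. PBS 1 to 4 had 0, 18, 0 and 665 reads, or 0, 23.1, 0 and 90.7 TPM. METH 1 to 4 had 31, 39, 0 and 798 reads, or 48.2, 57.3, 0 and 119 TPM. PBS 1, PBS 3 and METH 3 were therefore at 0, where 3 reads would be 5.70, 7.72 and 8.84 TPM. Their exact 95% intervals reached up to 7.01, 9.50 and 10.9 TPM. That of PBS 2, the lowest of the others, began at 13.7 TPM. Such intervals and limits cover counting error only. Means were 28.4 ± 42.9 TPM in PBS and 56.1 ± 48.9 TPM in METH (SD, n = 4).

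**Figure D1:**
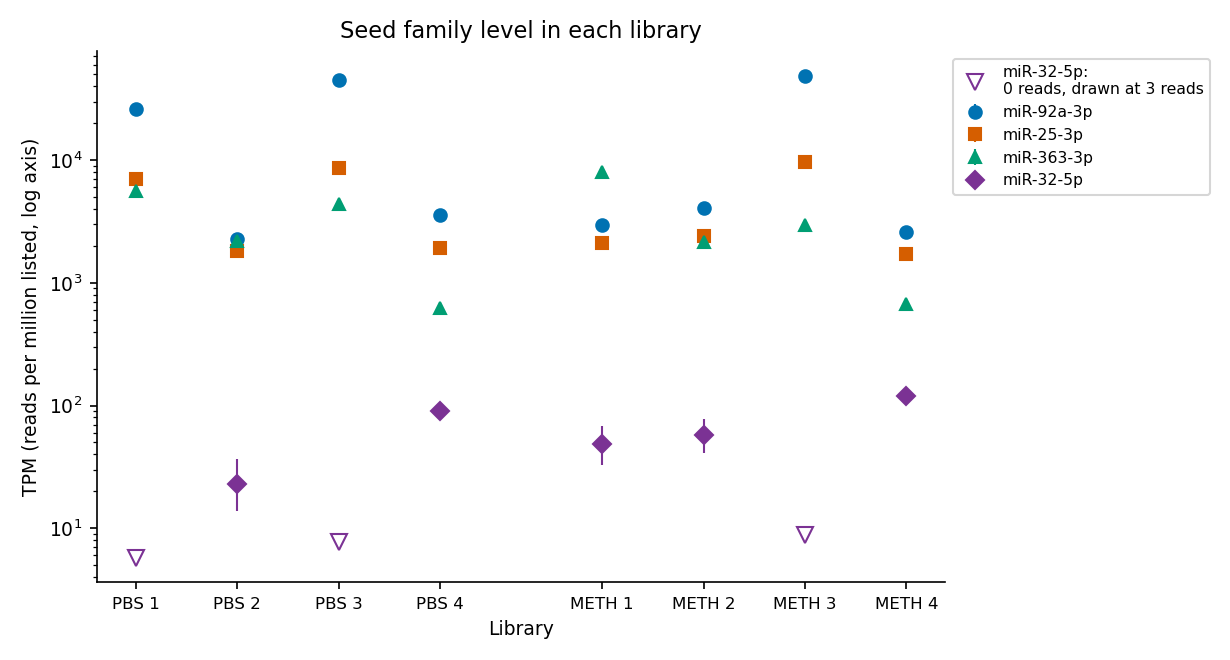
Level of each member in TPM (log axis) in the 4 PBS and 4 METH libraries; bars are exact 95% counting intervals, mostly smaller than the symbols, and open triangles mark 0 reads, drawn at the TPM of 3 reads. miR-92a-3p and miR-25-3p are high in PBS 1, PBS 3 and METH 3, where miR-32-5p has 0 reads, and miR-363-3p is highest in METH 1.

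Each read stands for 1 mature miRNA, so TPM of different miRNAs need no length term. Ligation efficiency can differ between miRNAs, so the order below is one of reads and need not be that of molecules. By mean level the order was miR-92a-3p, miR-25-3p, miR-363-3p and miR-32-5p. miR-92a-3p had more reads than miR-25-3p in 8 of 8 libraries, with a mean log2 ratio of 1.21 ± 0.86 (SD, n = 8). miR-25-3p and miR-363-3p, the neighbours in the middle of the order, did not differ beyond their spread, since miR-25-3p was higher in 6 of 8 libraries with a mean log2 ratio of 0.49 ± 1.21 (SD, n = 8). miR-92a-3p was above miR-363-3p in 7 of 8 libraries, all but METH 1, and miR-32-5p was lowest in all 8.

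Together the 4 members held 3.88%, 0.633%, 5.75% and 0.623% of the reads in PBS 1 to 4. In METH 1 to 4 they held 1.32%, 0.866%, 6.12% and 0.512%. Exact 95% counting intervals reached at most from 6.04% to 6.20%, in METH 3. The group means of 2.72% ± 2.54 in PBS and 2.20% ± 2.63 in METH (SD, n = 4) differed by less than the spread within either group. PBS 1, PBS 3 and METH 3 remained the highest when the reads of miR-21-5p were left out of the denominator, with 4.19%, 6.18% and 6.46% against 0.951% to 2.16% in the others.

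The make-up of the family also differed between libraries. miR-92a-3p gave 67.4%, 77.4% and 79.5% of the family reads in PBS 1, PBS 3 and METH 3. In PBS 2, PBS 4, METH 1, METH 2 and METH 4 it gave 36.1%, 57.7%, 22.4%, 46.6% and 50.9%. METH 1 was the 1 library in which miR-363-3p led, with 61.2% (exact 95% interval 60.1% to 62.2%). In PBS 2, miR-363-3p gave 34.7%, close to the 36.1% of miR-92a-3p, and in the other 6 libraries it gave between 4.84% and 24.9%. miR-25-3p gave between 14.9% and 33.7%, and miR-32-5p at most 2.33%, in METH 4.

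**Figure D2:**
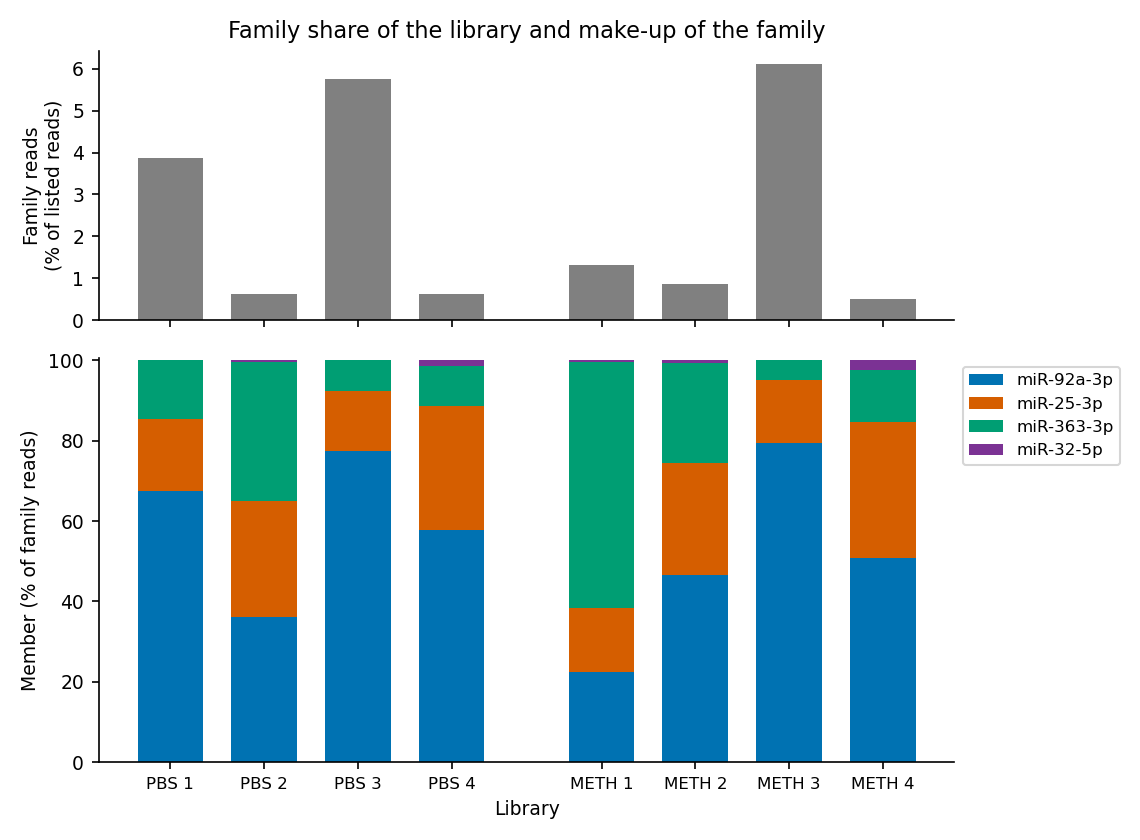
Upper bars give the family's share of all listed reads and lower stacked bars the percentage of family reads from each member, for each PBS and METH library. The family holds 3.88% to 6.12% of the reads in PBS 1, PBS 3 and METH 3 and at most 1.32% elsewhere, and miR-363-3p is the largest part in METH 1.

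Read ratios within a library do not depend on how libraries are scaled, and they set the members apart from each other. miR-92a-3p had 3.73, 5.20 and 5.08 reads per read of miR-25-3p in PBS 1, PBS 3 and METH 3. The ratio was 1.26 and 1.87 in PBS 2 and PBS 4, and 1.39, 1.67 and 1.51 in METH 1, METH 2 and METH 4. Both members were high in the same 3 libraries, and miR-92a-3p exceeded its level elsewhere by more than miR-25-3p did. Without these 3 libraries the SD of this log2 ratio was 0.22 in place of 0.86. The ratio of miR-92a-3p to miR-363-3p ran from 0.366 in METH 1 to 16.4 in METH 3, and from 0.366 to 5.78 without the 3 libraries. miR-25-3p had 78.8, 21.2, 43.9, 42.2 and 14.5 reads per read of miR-32-5p in PBS 2, PBS 4, METH 1, METH 2 and METH 4. Against 3 reads of miR-32-5p in each library at 0, it was 1228-fold higher in PBS 1, 1109-fold in PBS 3 and 1083-fold in METH 3. For the 0 reads counted there, the exact counting intervals of this ratio began at 998, 902 and 880.

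The partners of miR-92a in the miR-17-92 cluster did not share its whole distribution over the libraries. miR-17-5p, which represses cell cycle inhibitors, was at 1159.6, 281, 1650.3 and 529 TPM in PBS 1 to 4. METH 1 to 4 were at 599, 983, 887 and 596 TPM. Like miR-92a-3p it was high in PBS 1 and PBS 3, but its level in METH 3 was below that in METH 2. miR-92a-3p had 22.5, 27.0 and 54.9 reads per read of miR-17-5p in PBS 1, PBS 3 and METH 3, against 4.10 to 8.13 in the other 5. Per read of miR-20a-5p, of the same seed family as miR-17-5p, it had 23.9, 39.9 and 76.1 in those 3 libraries and between 2.38 and 4.34 in the others. Both ratios thus separated the 3 libraries from the rest with no overlap. These libraries were set apart in the same counts, so such a separation is not particular to this cluster. miR-101, of neither seed family, was at 137, 79.8 and 50.1 TPM in the 3 and at 674 to 1526 TPM elsewhere. The share of all pairs of miRNAs that separate them was not counted.

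miR-19b-3p, another partner in the cluster, showed the widest gap. PBS 1 to 4 held 29, 62, 10 and 557 reads of it, and METH 1 to 4 held 132, 253, 6 and 644. miR-92a-3p had 474 reads per read of miR-19b-3p in PBS 1 (exact 95% counting interval 330 to 708), 1730 in PBS 3 (940 to 3608) and 2752 in METH 3 (1264 to 7501). In the other libraries it had between 10.8 and 47.3. miR-19a-3p, of the same seed family as miR-19b-3p, was below the count filter, with 0 reads in PBS 1, PBS 3 and METH 3, where miR-32-5p was also at 0, and 4 to 33 reads in the others. miR-17-5p had 1.06, 1.48 and 1.39 reads per read of miR-20a-5p in PBS 1, PBS 3 and METH 3, against 0.534 to 0.686 in the other 5, so this ratio also separated the 3 libraries, within a narrower range. miR-18a was not analysed here.

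miR-25-3p kept close to its cluster partner. miR-93-5p, of the miR-17 seed family, was at 4015, 573, 3877 and 985 TPM in PBS 1 to 4 and at 863, 1440.0, 3443 and 1082 TPM in METH 1 to 4. It was high in the same 3 libraries as miR-25-3p. The ratio of miR-25-3p to miR-93-5p was 1.74, 3.18, 2.21 and 1.95 in PBS 1 to 4, while METH 1 to 4 had 2.45, 1.68, 2.78 and 1.59, a 2.00-fold range over all 8. The SD of the log2 ratio was 0.36 over 8 libraries and 0.41 without the 3 libraries, which lay among the others. miR-106b was not analysed here. For miR-363-3p, the cluster partners listed were miR-92a-3p, whose ratio to it is given above, and miR-19b-3p. Both can also come from the miR-17-92 cluster. The ratio of miR-363-3p to miR-19b-3p was 102, 172 and 168 in PBS 1, PBS 3 and METH 3, against 5.80 to 39.2 in the other 5.

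**Figure D3:**
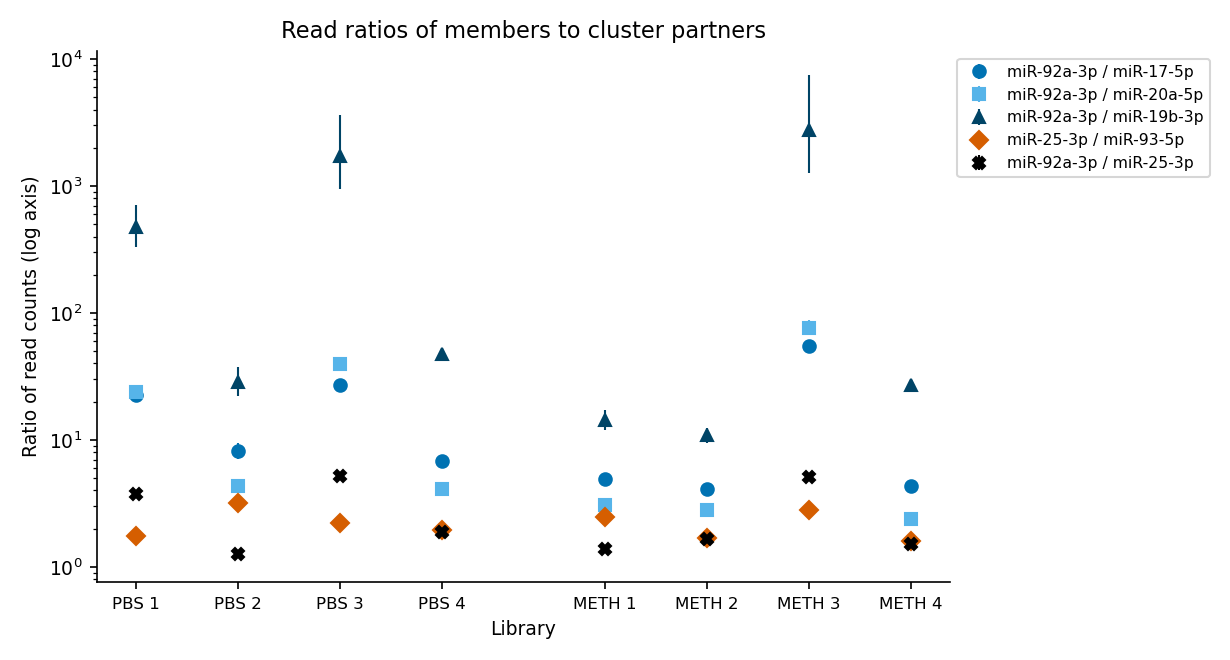
Ratio of read counts (log axis) in each PBS and METH library for miR-92a-3p over miR-17-5p, miR-20a-5p, miR-19b-3p and miR-25-3p and for miR-25-3p over miR-93-5p; bars are exact 95% counting intervals. Ratios with miR-92a-3p as numerator are high in PBS 1, PBS 3 and METH 3, up to 2752 for miR-19b-3p, while miR-25-3p over miR-93-5p stays between 1.59 and 3.18.

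The METH and PBS groups did not differ in any member by a test across all miRNAs. Of the 166 miRNAs past the count filter, the edgeR quasi-likelihood test on TMM-scaled counts called 0 at the adjusted threshold of 0.05 (0%), and an unadjusted p under 0.05 was reached by 0 (0%). By DESeq2 the calls numbered 0 as well, and 1 miRNA had an unadjusted p under 0.05 (0.602%). All 4 members passed the filter, miR-32-5p through the 5 libraries in which it has reads. None of the 4 was called, and none had groups without overlap, as was so for 0 of 166 miRNAs (0%).

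The edgeR estimate for miR-92a-3p, as log2 of METH over PBS, was 0.14 (SE 0.96, 95% interval −1.97 to 2.25, edgeR adjusted p = 0.999), with 1 of 4 METH libraries above the PBS mean. This value was −1.82 without METH 3, the 1 METH library with a high level (SE 0.73, edgeR unadjusted p = 0.028, edgeR adjusted p = 0.866). In that fit 4 of 171 miRNAs had an unadjusted p under 0.05, and 0 were called. The estimate for miR-92a-3p was 0.57 without PBS 3, 0.34 without PBS 1 and 0.51 without METH 4. It was −0.12 without PBS 2, −0.092 without PBS 4, and −0.055 when PBS 1, PBS 3 and METH 3 were all left out. The mean TPM was lower in METH, so its sign rests on the scaling as well.

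On the same log2 scale miR-25-3p was estimated at 0.14 (SE 0.59, 95% interval −1.15 to 1.43, edgeR adjusted p = 0.999), also with 1 of 4 METH libraries above the PBS mean. Leaving out METH 3 gave −0.63, and leaving out all 3 libraries that stood apart gave −0.028. As a fold the interval ran from 0.452 to 2.69. For miR-363-3p the estimate was 0.67 (SE 0.79, 95% interval −1.05 to 2.40, edgeR adjusted p = 0.999), with 2 of 4 METH libraries above the PBS mean in normalised CPM. It was −0.63 without METH 1, the library with the highest level, 0.44 without PBS 4, 1.10 without METH 4, 1.26 with the 3 libraries left out and 0.10 by total counts. The value for miR-32-5p was 0.92 (SE 1.50, 95% interval −2.36 to 4.20, edgeR adjusted p = 0.999), with 3 of 4 METH libraries above the PBS mean. It was 2.53 without PBS 4, 0.18 without METH 4 and 0.25 with the 3 libraries at 0 reads left out, of which 2 are PBS and 1 is METH.

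With TMM scaling all 4 members had a log2 fold change above 0, with a median of 0.41, as did 126 of all 166 miRNAs tested, with a median of 0.21. With DESeq2 size factors, upper quartile factors or total counts, 2 members were above 0 and 2 below, miR-92a-3p and miR-25-3p being below. The median of all miRNAs moved to 0.049, 0.021 and −0.14 with these scalings, so no direction of the family holds over them. Among the cluster partners outside the seed family 4 were tested and 0 called. The log2 fold change of miR-19b-3p was 1.57 (SE 0.97) and that of miR-20a-5p 0.55 (SE 0.49), falling to 0.86 and 0.23 when METH 2 was left out. The value of miR-17-5p was 0.28 (SE 0.47), with −0.24 by total counts and −0.082 if METH 2 was omitted, and that of miR-93-5p was 0.032 (SE 0.55), with −0.13 by DESeq2 size factors, −0.17 by upper quartile factors and −0.47 by total counts. The edgeR adjusted p was 0.999 for each.

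**Figure D4:**
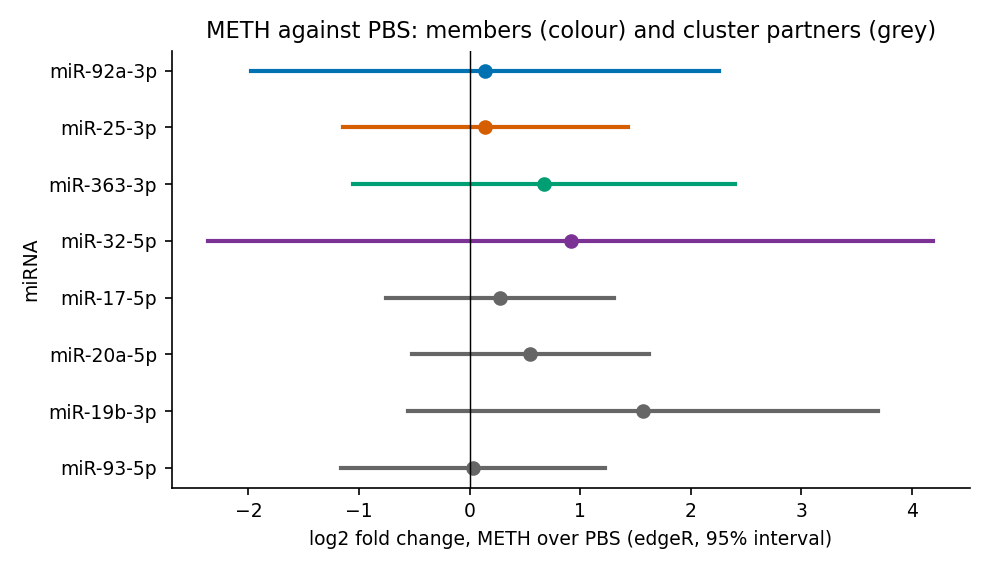
Log2 fold change of METH over PBS (points) with 95% intervals (lines) from the edgeR fit across 166 miRNAs, for the 4 members in colour and 4 cluster partners in grey. All 8 intervals span 0, and that of miR-32-5p is the widest, from −2.36 to 4.20.

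Balance between members did not separate the groups either. The mean log2 ratio of miR-92a-3p to miR-25-3p was 1.38 ± 0.93 in PBS and 1.04 ± 0.88 in METH (SD, n = 4), a difference of −0.34, smaller than the spread. That difference was −0.0037 without PBS 3, −0.15 without METH 1, −0.16 without PBS 1, −0.19 without METH 4, −0.69 without PBS 2 and −0.77 without METH 3. For miR-92a-3p to miR-363-3p it was 2.03 ± 1.40 in PBS and 1.36 ± 2.28 in METH, a difference of −0.67, which was 0.27 without METH 1, −0.24 without PBS 3, −1.33 without PBS 2 and −1.56 without METH 3. For miR-25-3p to miR-32-5p, with 0.5 added where miR-32-5p had 0 reads, it was 9.05 ± 4.36 in PBS and 6.83 ± 3.96 in METH, a difference of −2.22. This was −0.96 without PBS 1, −1.004 without PBS 3, −1.23 without METH 4, −3.77 without PBS 4, −4.16 without METH 3 and −0.44 with the 3 libraries at 0 reads left out. For miR-25-3p to miR-363-3p it was 0.66 ± 0.82 and 0.32 ± 1.64, and for miR-25-3p to miR-93-5p 1.14 ± 0.38 and 1.05 ± 0.40. These ratios were not tested.

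The miRNAs most like each member were taken as those whose log2 read ratio to it, with 0.5 added to each count, had the smallest SD over the 8 libraries among 165 others. Over all 13695 pairs of tested miRNAs the median SD was 1.43. Over the 165 others of each member it was 1.69 for miR-92a-3p, 1.08 for miR-25-3p, 1.56 for miR-363-3p and 3.49 for miR-32-5p. miR-92a-3p was closest to the predicted novel_117 (SD 0.38), the predicted novel_27 (SD 0.42) and miR-125a-5p (SD 0.46), a homologue of the worm lin-4 miRNA. miR-125a-5p was at 12243, 1342, 13210.0 and 1511 TPM in PBS 1 to 4 and at 1434, 3024, 16027 and 1629 TPM in METH 1 to 4, high in the same 3 libraries. novel_117 rests on 8 reads in PBS 2. Within the family miR-25-3p came 24th in likeness to miR-92a-3p, miR-363-3p 89th and miR-32-5p last, at 165. Of the cluster partners, miR-17-5p came 62nd, miR-20a-5p 105th and miR-19b-3p 146th. In likeness to miR-25-3p, miR-92a-3p came 58th.

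miR-25-3p was closest to the predicted novel_367 (SD 0.20), the predicted novel_2 (SD 0.30) and miR-652-3p (SD 0.30), with miR-93-5p 6th (SD 0.36). novel_367 had between 0.153 and 0.229 reads per read of miR-25-3p in all 8 libraries. novel_2, one of the most abundant miRNAs, had between 7.58 and 15.2, and miR-652-3p had 13 to 85 reads. miR-363-3p had looser neighbours, the predicted novel_72 (SD 0.51), miR-592 (SD 0.52, 3 to 35 reads) and the predicted novel_534 (SD 0.56), and miR-25-3p came 20th (SD 1.21).

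miR-32-5p was closest to miR-539-3p (SD 1.00), miR-101 (SD 1.22) and miR-9771m (SD 1.34), values that depend on the 0.5 added where miR-32-5p had 0 reads. miR-539-3p, a miRNA of the imprinted DLK1-DIO3 region in human and mouse, had 2, 2 and 1 reads in PBS 1, PBS 3 and METH 3. In PBS 2, PBS 4, METH 1, METH 2 and METH 4 it had 26, 686, 78, 35 and 937 reads. miR-101, which represses the chromatin enzyme EZH2, was at 137, 79.8 and 50.1 TPM in the 3 libraries and between 674 and 1526 TPM in the others. Among the 165 others ranked by likeness to miR-32-5p, miR-92a-3p came 160th and miR-21-5p 8th.

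**Figure D5:**
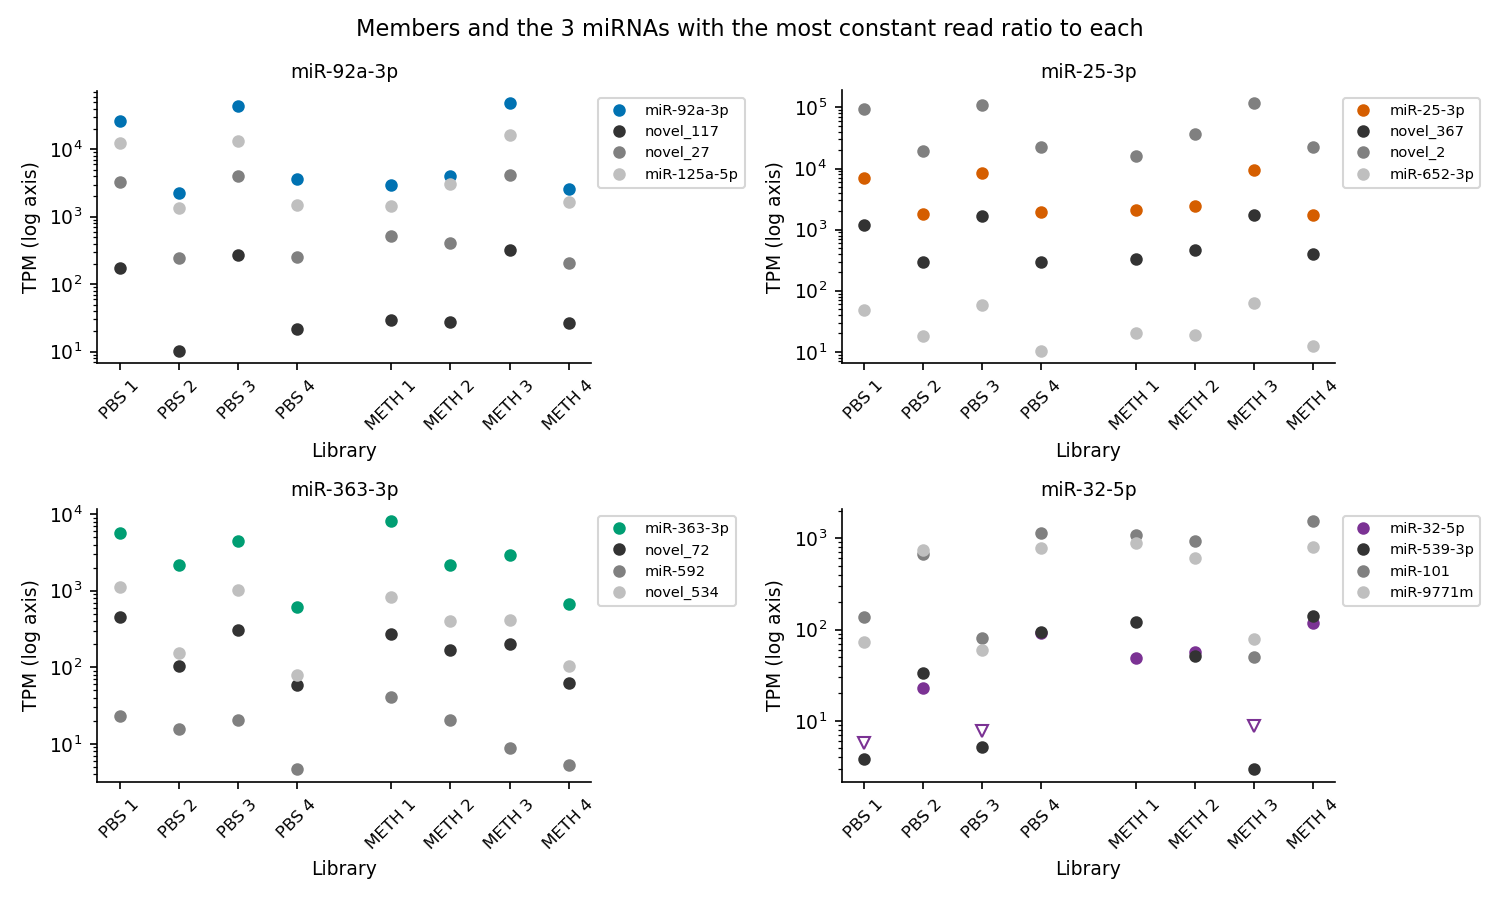
Level in TPM (log axis) of each member, in colour, and of the 3 miRNAs with the most constant read ratio to it, in grey, in the PBS and METH libraries; open triangles mark 0 reads of miR-32-5p, drawn at 3 reads. The neighbours of miR-92a-3p and miR-25-3p are high in PBS 1, PBS 3 and METH 3, and those of miR-32-5p are low there.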

How the data were processed

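The authors deposited 1 table with raw read counts and TPM per miRNA in each library, as the file headers say. These TPM are each count divided by the library's listed total and scaled to 1 common sum (largest difference 4.51e-05). Libraries were made by ligating adapters to both ends, copying, PCR and gel selection, per the labels' protocols, with no molecular identifiers mentioned. Ligation efficiency can differ between miRNAs. The sources used here name no aligner, miRNA reference or build, nor how shared reads were treated. The labels leave unsaid whether separate animals or cultures stand behind the samples of a group. The p-values then reflect only how these samples vary, possibly for technical reasons.

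Groups come from sample titles. All listed miRNAs entered edgeR 4.0.16 (R 4.3.3): TMM factors, filterByExpr (minimum count 10, minimum total 15), robust quasi-likelihood F test, Benjamini-Hochberg adjustment over 166 miRNAs, and normalised CPM from TMM-scaled library sizes. SE come from the F statistic. DESeq2 1.42.0 was an alternative. Principal components used log2 CPM (prior count 2). Counting intervals are exact (Clopper-Pearson, 95%), from scipy 1.17.1. No pair of libraries agreed within sampling noise (smallest chi-square per degree of freedom 119.6, PBS 1 against METH 3). Named miRNAs are the members, other seed members, opposite arms and cluster partners listed, and the 3 nearest to each member. miR-92b, miR-367 and the opposite arms were not analysed here. Members and lists were chosen with earlier results of these data known.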

Additional observations from a re-analysis of the deposited data

Results flagged for a closer look

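Dixon's test at the 95% level examined 28 groups of 4 values, each holding PBS libraries only or METH libraries only. METH 3 belongs to the METH groups alone. It lay apart from the other 3 METH libraries in 7 of those, and no PBS group had a library set apart. Chance alone gives about 1 in 20 groups, and these 7 share 1 library and mostly 1 miRNA, so they are not separate observations. In METH 3, miR-92a-3p was at 48679 TPM, miR-25-3p at 9577 TPM and the family at 6.12% of the reads. The log2 ratio of miR-92a-3p there was 2.35 to miR-25-3p, 5.78 to miR-17-5p, 6.25 to miR-20a-5p and 11.31 to miR-19b-3p. PBS 1 and PBS 3 also lay above the other 5 libraries in each of these 7 measures. The test looks for 1 value apart from the other 3, and PBS held both of these high libraries. The lack of a PBS library set apart therefore does not show that PBS was more even.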

How the results depend on the processing

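The count of called miRNAs stayed at 0 under all 17 alternatives. With DESeq2 size factors, upper quartile factors, total counts, no filter, a mean count of at least 10 and DESeq2, the log2 fold change was −0.098, −0.10, −0.39, −0.20, −0.27 and −0.098 for miR-92a-3p and −0.044, −0.054, −0.29, −0.063, −0.088 and −0.044 for miR-25-3p. Without PBS 1, PBS 3 and METH 3 the values were −0.055 and −0.028. With the replicate number as a block they were −0.34 and −0.042, with 0.29 for miR-363-3p, 1.73 for miR-32-5p and 0 miRNAs called. The numbers were not taken as pairing, since the labels do not say that equal numbers share an animal or culture. Libraries of the same number had correlated deviations of −0.25, 0.54, 0.77 and 0.89. By correlation of deviations from the group means, PBS 2, PBS 3 and PBS 4 were closest to the METH library of their own number, and PBS 1 to METH 3. By chi-square per degree of freedom between counts, PBS 2 differed less from METH 1 (247) than from METH 2 (421). Whether equal numbers share a batch was not tested. With the block the SE was 0.58, 0.42, 0.46 and 1.22 for miR-92a-3p, miR-25-3p, miR-363-3p and miR-32-5p, against 0.96, 0.59, 0.79 and 1.50 without it. Leaving out 1 replicate gave −1.82 to 0.57 for miR-92a-3p, −0.63 to 0.39 for miR-25-3p, −0.63 to 1.10 for miR-363-3p and 0.18 to 2.53 for miR-32-5p. The cause of these changes of sign was not tested. miR-32-5p stayed above 0 under all 17. With total counts miR-363-3p was at 0.10. The difference in family share ranged from −1.82 to 0.49 percentage points when 1 replicate was left out. Those in log2 ratio ranged from −0.77 to −0.0037 for miR-92a-3p to miR-25-3p, −1.56 to 0.27 for miR-92a-3p to miR-363-3p and −4.16 to −0.96 for miR-25-3p to miR-32-5p. All 4 moved by less than 1 SD, which is large here, under each of 11 alternatives. At the depth of PBS 1, PBS 3 and METH 3, where miR-32-5p had 0 reads, its exact counting intervals reached up to 7.01, 9.50 and 10.9 TPM.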
